A study of Saccharomyces cerevisiae with 24 samples.

Results

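The yox1Δ strain was compared with wild type by RNA-seq of asynchronous budding yeast, Saccharomyces cerevisiae, in rich medium. The 3 yox1Δ and 3 wild type samples belonged to a deletion set of 12, and 6311 of the 7126 genes in its table, those with a mean of at least 1 TPM (a level scaled for gene length and library depth), were tested. All strains of the set were labelled MATa ura3Δ0 leu2Δ0 his3Δ0, where the strain table of the study gives his3Δ1. Wild type was met15Δ0 with both factors tagged, as YOX1-3V5-KanMx and YHP1-13MYC-LEU2. The yox1Δ strain was met15Δ0 yox1Δ::KanMX, so it lacked both tags and the LEU2 marker as well as YOX1. The yhp1Δ strain was lys2Δ0 yhp1Δ::LEU2, with met15Δ0 not listed. The yhp1Δ yox1Δ strain was met15Δ0 yox1Δ::NatMX yhp1Δ::LEU2. A yox1-9A strain came from a second set with wild type samples of its own, whose genotype was the one given above; it was met15Δ0 yox1-9A-3V5-KanMx, in which phosphorylation sites of Yox1 are mutated, and it also lacked the LEU2 marker and the YHP1 tag. Each genotype was 1 strain with 3 biological replicates, so deletion of YOX1 and loss of LEU2 cannot be told apart in yox1Δ against wild type alone.

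Yox1 and its paralog Yhp1 are homeodomain repressors. They act with the MADS-box factor Mcm1 at early cell cycle box promoters, which drive genes such as those of the Mcm2 to Mcm7 DNA helicase around the M to G1 transition. LEU2 encodes beta-isopropylmalate dehydrogenase, a step of leucine synthesis, and the factor Leu3 activates other genes of that pathway when the intermediate alpha-isopropylmalate is present.

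Few genes differed between yox1Δ and wild type. Of 6311 genes, 23 were called (0.364%), 19 higher (0.301%) and 4 lower (0.0634%), by limma on log2(TPM + 1) at an adjusted p below 0.1. Fold changes are on that scale. Of the 23, 10 changed by less than 2-fold. At an unadjusted level, 254 genes had a p below 0.05, 163 higher and 91 lower. Apart from YOX1 and LEU2, the called genes were mostly of 3 kinds. There were 4 genes of the list of leucine and branched-chain amino acid genes, 9 genes of the overexpression list, and 5 tRNA genes. The overexpression list was drawn by the study from other samples, in which Yox1 or Yhp1 was acutely overexpressed. The 3 others were MAE1, YGR164W and YLR460C. The 3 yox1Δ samples lay above the 3 wild type samples in all 19 genes called higher, and below them in all 4 called lower, where 3.15% and 2.69% of all genes tested did so. The calls were made from these same samples, so their lack of overlap is not separate support. The plot of fold change against level shows that the 19 genes span low to high levels.

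**Figure D1:**
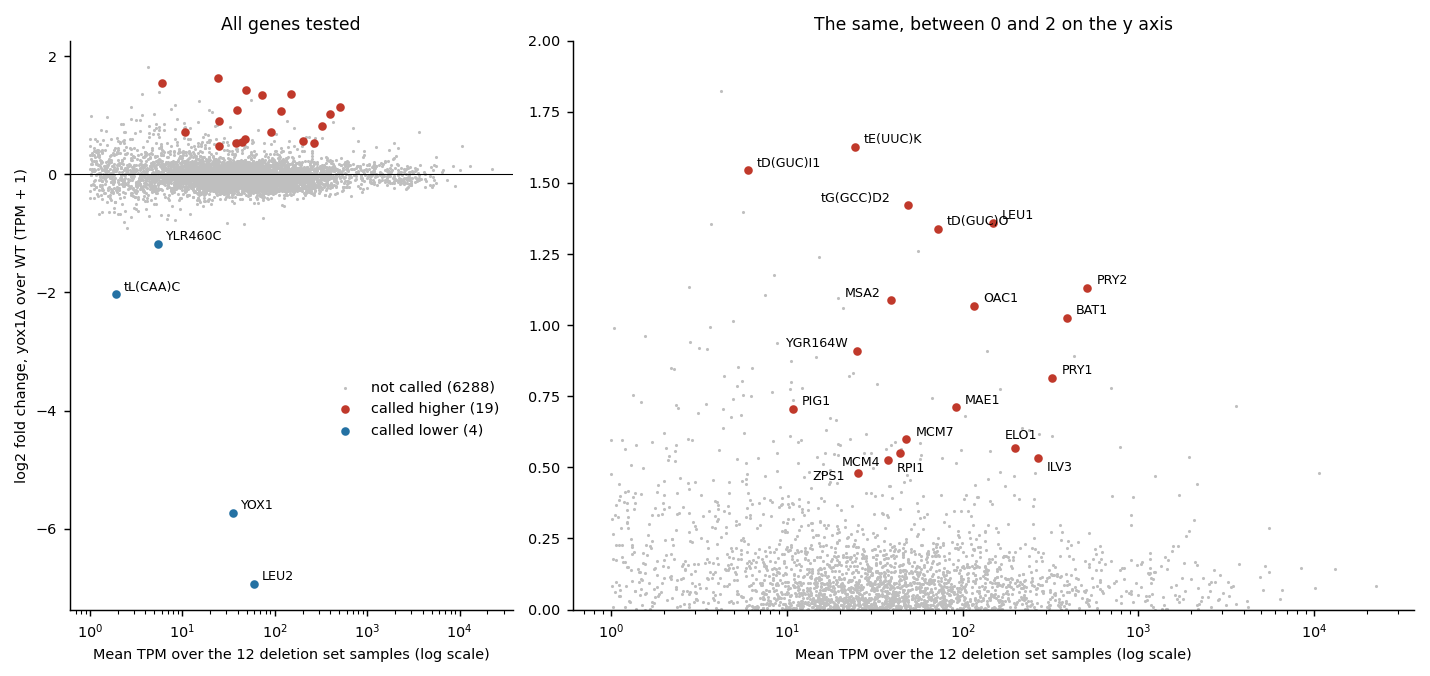
Log2 fold change of yox1Δ over wild type on the TPM + 1 scale (y axis) against mean TPM over the 12 deletion set samples (x axis, log scale); each point is 1 of 6311 genes, red called higher, blue called lower and grey not called. The left panel shows all genes, with LEU2 at -6.93 and YOX1 at -5.73, and the right panel shows the part between 0 and 2, where all 19 genes called higher lie between 0.48 and 1.63.

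The labels were checked first. YOX1 was at 94.1, 108 and 85.9 TPM in wild type and at 0.998, 0.932 and 0.563 TPM in yox1Δ, where 63 fragments were left in the 3 samples together against 7293. The groups did not overlap, and the fall was 116-fold in fragments per library (two-sided exact permutation test over 3 against 3 samples, p = 0.1, the smallest that design allows). YHP1 was at 37.2, 30.8 and 31.5 TPM in wild type and at 80.1, 43.8 and 60.4 TPM in yox1Δ. All 3 yox1Δ samples were above wild type, but the log2 fold change of 0.83 ± 0.18 (SE) was not called (adjusted p = 0.139, limma). It was called with median-of-ratios scaling (0.0885), with a replicate block (0.0752), with log2 HIS3 level as a covariate, added after seeing the data (0.0434), and without yox1Δ replicate 2 (0.0252, log2 fold change 1.05), and the adjusted p reached 0.716 over the other alternatives. Wild type carries the 13MYC tag and marker behind YHP1 while yox1Δ does not. The exact permutation p was also 0.1. TSA1 and RPS18B, the neighbours of YOX1, had log2 fold changes of 0.11 ± 0.09 and -0.14 ± 0.09, and RPS18A and PPN1, beside YHP1, -0.18 ± 0.07 and 0.07 ± 0.10. None of the 4 was called. The MATa label was compared with the pheromone genes. The MATa-specific MFA1 was at 2914 TPM and STE2 at 666 TPM in wild type. The MATalpha-specific MF(ALPHA)1 was at 0.909 TPM and STE3 at 2.57 TPM. Not every member of both lists was so far apart. In fragments per wild type sample, the MATalpha-specific SAG1 had 868 to 974 and MF(ALPHA)2 86 to 129. The MATa-specific ASG7 had 182 to 279 and STE6 6019 to 7942. No gene of either list of 7 and 4 genes was called.

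The 6 libraries held 18.1 to 18.7 M fragments each. One axis held 43.9% of the spread within groups over the 12 samples. On it wild type replicate 2 (15.6) stood apart from replicates 1 and 3 (-8.18 and -7.40), and yox1Δ replicate 1 (-19.4) from replicates 2 and 3 (9.52 and 9.86). HIS3 followed the same split, at 29.7 TPM in wild type replicate 2 against 50.8 and 53.8 TPM, and at 67.6 TPM in yox1Δ replicate 1 against 32.5 and 32.5 TPM. With log2 HIS3 level as a covariate, all 23 genes stayed called.

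LEU2 showed the largest fall. It was at 120, 125 and 134 TPM in wild type and at 0, 0 and 0.128 TPM in yox1Δ, or 3 fragments against 9100, a 3049-fold lower share (95% exact interval 1043 to 14789, counting error only; exact permutation p = 0.1). LEU2 was at 57.2 ± 2.4 TPM (SD, n = 3) in yhp1Δ and 56.8 ± 1.9 TPM in yhp1Δ yox1Δ, where the marker replaces YHP1, and at 0.0433 to 0.0451 TPM in the yox1-9A samples. A leucine tRNA gene, tL(CAA)C, was also called lower, from 3.37, 2.3 and 3.74 TPM to 0 in all 3 samples. That is 17 fragments against 0, at least 5.70-fold lower when 3 fragments over the group are taken as the floor. It was at 0 in the 3 yox1-9A samples as well, against 2.9, 1.09 and 1.17 TPM in their wild type. The RefSeq annotation of the R64 genome has a leucine tRNA gene, SUP53, at chrIII:90859-90972, upstream of LEU2 (chrIII:91324-92418), but the files do not pair it with this name.

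Genes of leucine synthesis rose in the strain without LEU2. LEU1, the isopropylmalate isomerase that acts just before Leu2, was at 134, 133 and 115 TPM in wild type and at 293, 321 and 372 TPM in yox1Δ. That was a 2.57-fold rise, with a log2 fold change of 1.36 ± 0.11 (SE; adjusted p = 0.000110, limma). BAT1, the mitochondrial branched-chain aminotransferase, was at 366, 356 and 341 TPM and then at 784, 656 and 735 TPM, a 2.04-fold rise (adjusted p = 0.000134). OAC1, a mitochondrial carrier that exchanges oxaloacetate and isopropylmalate, was at 107, 108 and 110 TPM and then at 265, 187 and 240 TPM, a 2.10-fold rise (adjusted p = 0.00289). ILV3, dihydroxyacid dehydratase of the shared valine and leucine route, rose 1.45-fold, from 278, 274 and 252 TPM to 365, 379 and 423 TPM (adjusted p = 0.0285). MAE1, the mitochondrial malic enzyme, which makes pyruvate, is not on the list of leucine genes. It rose 1.64-fold, from 87.8, 91.6 and 76.5 TPM to 147, 132 and 141 TPM (adjusted p = 0.00544). For each of the 5 genes every yox1Δ sample was above every wild type sample.

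Other genes of the pathway did not pass the test. All 15 genes on the leucine and branched-chain list were tested. Of these, 4 were called higher (26.7%, beside 0.301% of all genes) and none lower. All yox1Δ samples were above wild type in 10 (66.7%, beside 3.15% of all genes), and 5 overlapped with it. Their median log2 fold change was 0.38, beside -0.04 over all genes. BAP2, a permease for branched-chain amino acids, was at 241, 303 and 227 TPM in wild type and at 331, 433 and 418 TPM in yox1Δ (log2 fold change 0.62 ± 0.14, adjusted p = 0.162). LEU4, the main alpha-isopropylmalate synthase, was at 75.0, 84.1 and 62.7 TPM and at 88.6, 117 and 117 TPM (0.53 ± 0.15, adjusted p = 0.393). The values of ILV5, ILV2, GDH1 and ILV6 did not overlap between the groups either, with log2 fold changes between 0.23 and 0.40. LEU3 itself (-0.04), BAT2, the cytosolic aminotransferase (0.02), and ILV1, threonine deaminase (-0.01), showed values near 0.

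**Figure D2:**
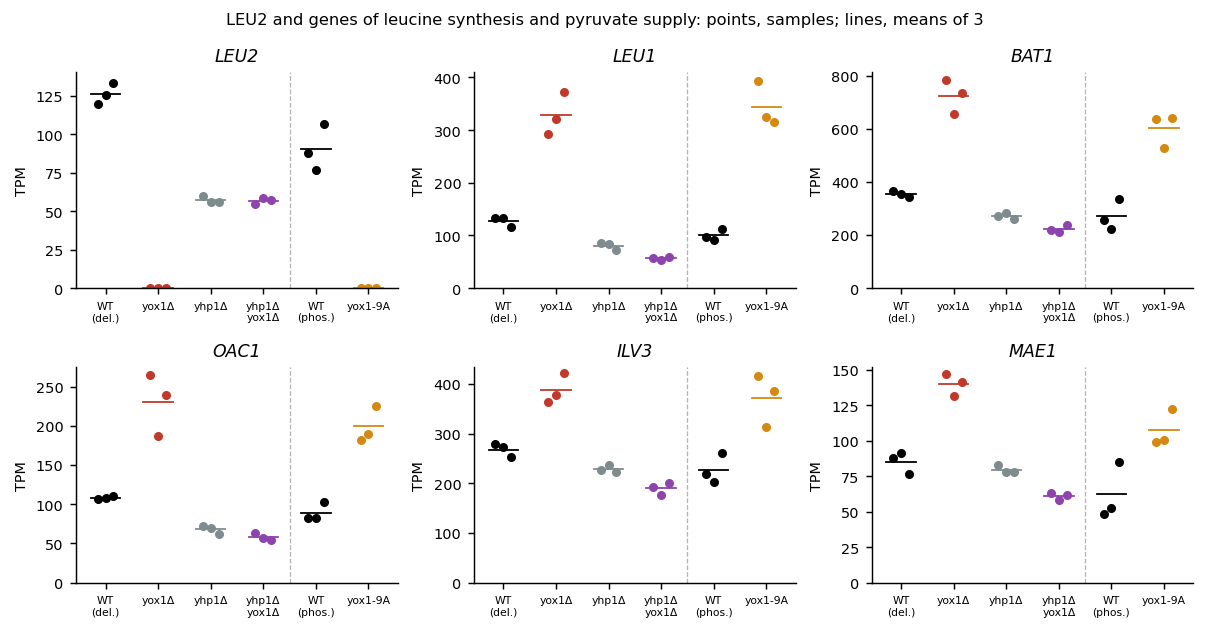
TPM (y axis, from 0) of LEU2, LEU1, BAT1, OAC1, ILV3 and MAE1 in each sample (points) with the mean of 3 (line), by strain; the dashed line parts the deletion set from the yox1-9A set. The yox1Δ and yox1-9A samples, which have LEU2 near 0, lie above the wild type of their own set for the other 5 genes, and the yhp1Δ yox1Δ samples, which keep LEU2 near 57 TPM, lie below it.

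The same genes separated yox1Δ from the other strains. In yhp1Δ yox1Δ, which also lacks YOX1 but carries LEU2, LEU1 was at 57.3 ± 2.9 TPM (SD, n = 3) against 329 ± 40 TPM in yox1Δ. It was below wild type in yhp1Δ as well, at 4336, 4118 and 3751 fragments against 6810, 6579 and 6150. BAT1 and OAC1 also had fewer fragments in every yhp1Δ sample than in wild type. The difference of the double from the single deletion was -2.49 ± 0.11 (log2, SE) for LEU1, -1.69 for BAT1 and -1.95 for OAC1, each called, in a comparison that called 14 genes higher (0.222%) and 22 lower (0.349%). The interaction of both deletions is the change from yhp1Δ to yhp1Δ yox1Δ minus that from wild type to yox1Δ. Only the second change also removes the LEU2 marker and the tags, so a dependence on YHP1 cannot be told apart from their loss. The interaction was called for 12 genes (0.190%). Among them were LEU1 (-1.83), BAT1 (-1.31), OAC1 (-1.28), MAE1 (-1.09) and ILV3 (-0.80), with adjusted p from 0.000115 to 0.0254. Against the mean of the 3 other strains, 42 genes were called in yox1Δ (0.666%), 34 higher (0.539%) and 8 lower (0.127%). Of the 15 leucine genes, 9 were called higher in that contrast, at a median of 0.50. Its controls include wild type and its values are not independent of the comparison above.

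yox1-9A, tested against its own wild type, had the change of the leucine genes and not the fall of YOX1 RNA. YOX1 was at 84.4, 67.9 and 85.9 TPM in yox1-9A against 80.1, 67.5 and 103 TPM. The paper describes the mutant proteins as more abundant and their targets as more strongly repressed. The RNA level is therefore no measure of Yox1 activity, and what drives the leucine genes was not tested. LEU1 was at 393, 325 and 314 TPM in yox1-9A against 97.8, 91.0 and 112 TPM (log2 fold change 1.77 ± 0.15, adjusted p = 0.000194). BAT1 (1.16), OAC1 (1.16) and ILV3 (0.70) were called too, and MAE1 was at 0.82 (adjusted p = 0.234). The yox1-9A comparison called 18 of 6316 genes (0.285%), 11 of them higher (0.174%), and 5 genes were called in both comparisons, 21.7% of the yox1Δ calls and 27.8% of the yox1-9A calls: LEU2, LEU1, BAT1, OAC1 and ILV3. The spread of same-numbered samples was shared in this set (correlations of 0.52, 0.73 and 0.83), and with replicate number as a block 52 genes were called (0.823%), of which 9 were also yox1Δ calls, 39.1% and 17.3% of the 2 lists. MAE1 was then called (adjusted p = 0.0270). HIS3 was also higher in yox1-9A, at 185, 226 and 115 TPM against 49.7, 58.7 and 33.5 TPM.

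Sites for Leu3 are shown because 6 of the 15 leucine genes hold the consensus, in which CCGG is followed by any pair of bases and a further CCGG, within 500 bases before the start codon. Only 16 of 5738 promoters of tested protein-coding genes do (0.279%). The windows of 60 bases below are from the RefSeq R64 genome, written 5′ to 3′ along the gene, with the consensus in capitals.
LEU1, chrVII:478835-478894, minus strand: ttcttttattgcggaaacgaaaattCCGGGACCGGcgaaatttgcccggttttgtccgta
BAT1, chrVIII:517360-517419, plus strand: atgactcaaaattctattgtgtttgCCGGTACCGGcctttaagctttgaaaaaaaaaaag
BAP2, chrII:376042-376101, minus strand: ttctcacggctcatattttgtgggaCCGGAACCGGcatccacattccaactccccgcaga
ILV2, chrXIII:483591-483650, plus strand: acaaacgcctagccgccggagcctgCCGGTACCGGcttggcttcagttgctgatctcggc
GDH1, chrXV:1043412-1043471, minus strand: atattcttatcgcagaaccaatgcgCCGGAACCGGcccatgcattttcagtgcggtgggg
ILV5, chrXII:839596-839655, minus strand: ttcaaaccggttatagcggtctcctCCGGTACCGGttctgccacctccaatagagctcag
All 6 genes had every yox1Δ sample above wild type, at log2 fold changes of 1.36, 1.03, 0.62, 0.40, 0.38 and 0.33 in the order shown, and LEU1 and BAT1 were called. Among all 16 genes with the consensus, the groups did not overlap upwards in 8 (50%), where 2.72% of all genes with a promoter did so. LEU2 itself is among the 16, at -6.93 with all yox1Δ samples below wild type. The other 2 of the 8, chosen here after their values were seen, were GAT1 (0.44) and DRE2 (0.28). OAC1 and ILV3 have no exact match in that window. The Gcn4 motif TGACTCA, of the general amino acid control, stood in 8 of 15 leucine promoters (53.3%) and in 4.13% of all. Of 237 genes with it, 14 had all yox1Δ samples above wild type (5.91%). A match to such letters is a description of the sequence and not a measured site.

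Genes of other amino acid pathways were not called against wild type. Of 13 arginine genes tested, none was called and the median log2 fold change was 0.13. All yox1Δ samples were above wild type in 4 of them (30.8%), beside 3.15% of all genes. Among the 4 were ARG3, ARG1 and ARG4 (log2 fold changes of 0.64, 0.58 and 0.45, adjusted p from 0.139 to 0.268), which were between 0.34 and 0.55 in yox1-9A. HIS4, of histidine synthesis, was at 0.45 (adjusted p = 0.139). Against the mean of the 3 other strains, 4 arginine genes and HIS4 were called higher, with ARG3 at 0.65, ARG1 at 0.63, ARG4 at 0.50 and HIS4 at 0.37. None of 7 lysine genes or of 18 sulfate and methionine genes was called, and their medians were 0.07 and 0.08.

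The 9 called genes of the overexpression list all rose. PRY2, which encodes a secreted sterol-binding protein, was at 387, 366 and 289 TPM in wild type and at 840, 751 and 684 TPM in yox1Δ. It rose 2.19-fold, a log2 fold change of 1.13 ± 0.14 (SE; adjusted p = 0.00338, limma). Its paralog PRY1 was at 139, 161 and 141 TPM and then at 285, 272 and 224 TPM, a 1.76-fold rise (adjusted p = 0.00850). MSA2, a regulator of G1 transcription, was at 25, 26.5 and 26.3 TPM and then at 72.5, 50.2 and 48.8 TPM, a 2.12-fold rise (adjusted p = 0.00343). In each of these 3 genes the lowest yox1Δ sample was clear of the highest wild type sample, and yox1Δ replicate 1 was the highest.

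The other 6 rose by less. MCM4, a subunit of the replicative helicase, was at 33.5, 32.1 and 26.8 TPM in wild type and at 42.4, 45.4 and 46.0 TPM in yox1Δ, a 1.44-fold rise (adjusted p = 0.0676). MCM7, another subunit, was at 41.0, 39.8 and 33.5 TPM and then at 56.6, 56.0 and 61.5 TPM, a 1.52-fold rise (adjusted p = 0.0682). ELO1, a fatty acid elongase, rose 1.48-fold to 244, 258 and 276 TPM from 173, 185 and 165 TPM. PIG1, a glycogen gene that encodes a subunit of the Glc7 phosphatase, rose 1.63-fold, from 6.86, 7.43 and 5.60 TPM to 11.9, 11.9 and 10.5 TPM. RPI1, a transcriptional regulator, rose 1.46-fold and ZPS1, a cell surface protein gene, 1.40-fold. The adjusted p of these 4 lay between 0.0285 and 0.0699.

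**Figure D3:**
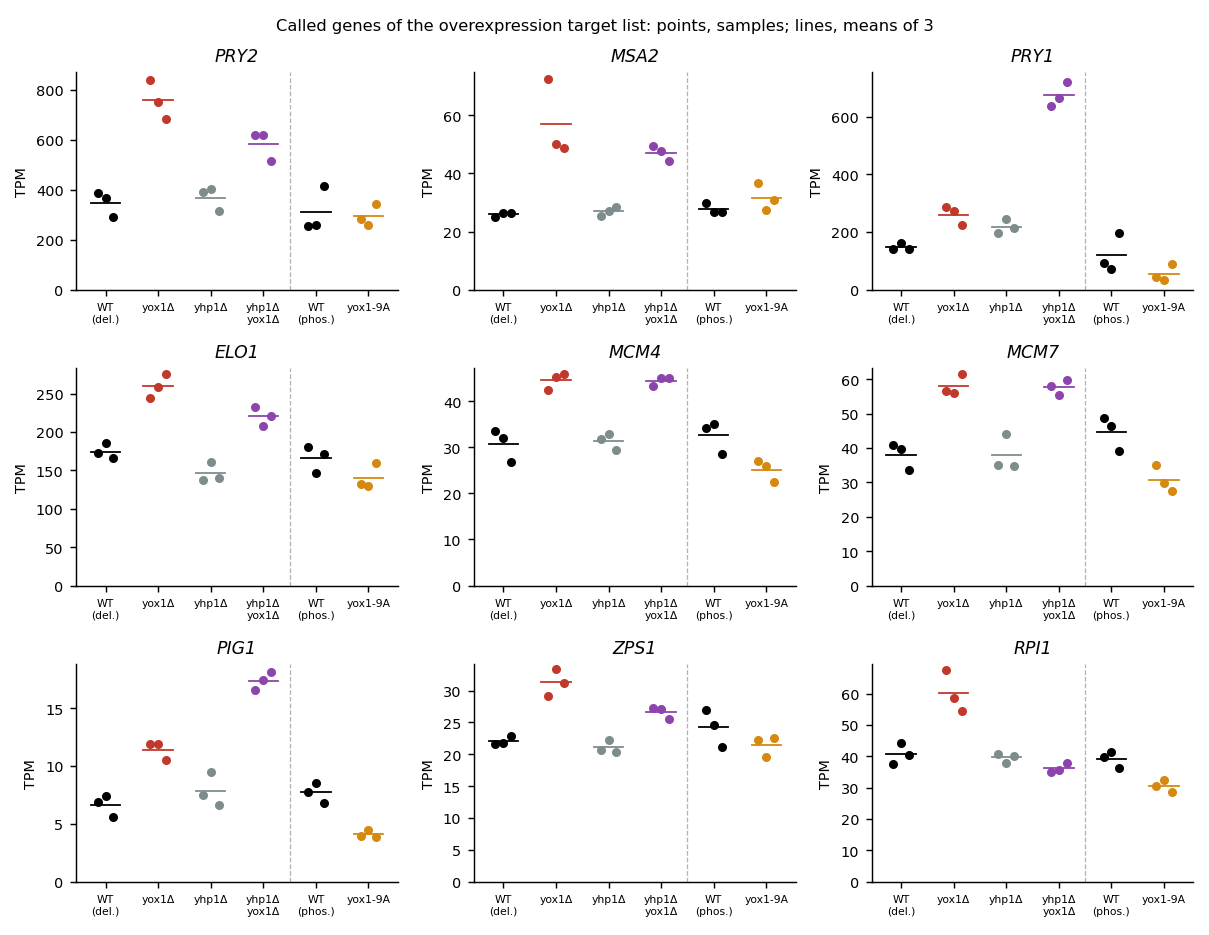
TPM (y axis, from 0) of the 9 called genes of the overexpression list in each sample (points) with the mean of 3 (line), by strain; the dashed line parts the deletion set from the yox1-9A set. All 3 yox1Δ samples lie above all 3 wild type samples in each panel, and PRY1 and PIG1 are higher again in yhp1Δ yox1Δ, while RPI1 in yhp1Δ yox1Δ lies between 34.8 and 37.8 TPM, near wild type.

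Across the overexpression list the median shift was small. The copy used here held 325 genes and may not be complete. Without YOX1 and YHP1, 318 of them were tested, and 9 were called higher (2.83%) and none lower. All yox1Δ samples were above wild type in 57 (17.9%) and below it in 5. The shares called higher and above wild type were 0.301% and 3.15% over all genes. The median log2 fold change was 0.10, beside -0.04 over all genes. The cell cycle groups differed within this. On the list of 11 M/G1 early cell cycle box genes, 2 were called (18.2%) and 8 had all yox1Δ samples above wild type (72.7%), at a median of 0.35. Besides MCM4 and MCM7 these were MCM5 (log2 fold change 0.59 ± 0.13, adjusted p = 0.139), MCM3 (0.35), MCM2 (0.30), MCM6 (0.22), the G1 activator SWI4 (0.37) and the licensing factor CDC6 (0.47). All 6 helicase genes were thus above wild type in every sample, though CLN3, CDC45 and FAR1 of the same list overlapped with it. Of 19 genes of the G2/M CLB2 cluster none was called, at a median of 0.06, and the mitotic exit kinase DBF2 and MYO1 were the 2 with samples above wild type. None of 14 SIC1 cluster genes, 10 core histone genes or 32 mitotic exit genes was called either, and of 24 G1/S genes the single call was YOX1 itself.

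Genes of the cell surface were in part above wild type. Of 24 genes on the list of SUN, PRY and cell wall genes, PRY1 and PRY2 were called higher (8.33%) and none lower. All yox1Δ samples were above wild type in 10 (41.7%) and 14 overlapped with it, at a median of 0.34. Over all genes, the shares called higher and above wild type were 0.301% and 3.15%. UTH1, a SUN family gene, was at 1633, 1873 and 1479 TPM in wild type and at 2241, 2226 and 2274 TPM in yox1Δ (log2 fold change 0.44 ± 0.09, adjusted p = 0.138). SCW10, UTR2 and CRH1, which encode glucanase and transglycosylase proteins of the wall, were at 0.57, 0.40 and 0.48 with adjusted p from 0.205 to 0.216. The iron regulon had a median of 0.27 with no call among 17 genes, and in FIT2 alone did the groups not overlap.

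**Figure D4:**
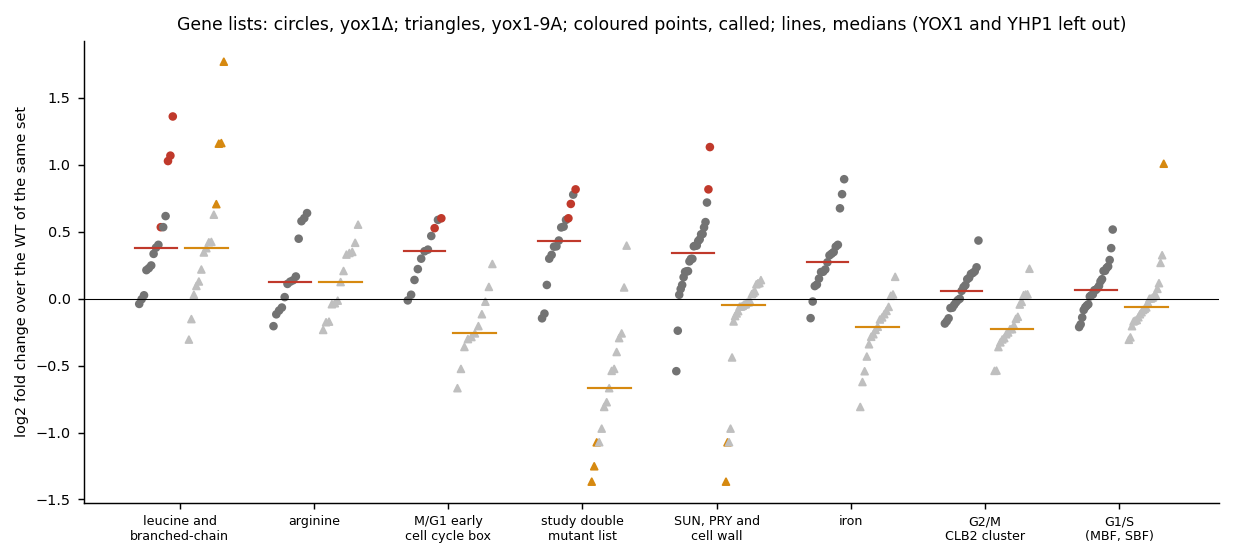
Log2 fold change on the TPM + 1 scale (y axis) of the tested members of 8 gene lists, with YOX1 and YHP1 left out; circles are yox1Δ against its wild type, triangles yox1-9A against its own wild type, coloured points are called and lines are medians. The leucine list has a median of 0.38 in both comparisons, and the early cell cycle box list one of 0.35 in yox1Δ and -0.26 in yox1-9A.

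Loss of YOX1 was next measured over both YHP1 backgrounds, as the mean of yox1Δ and yhp1Δ yox1Δ against the mean of wild type and yhp1Δ. This called 53 genes (0.84%), 45 higher (0.713%) and 8 lower (0.127%). The overexpression list, with 320 of the 6311 genes tested, held 28 of the 45. Of the 19 genes called higher in yox1Δ, 16 were called higher here too, a count that the shared yox1Δ and wild type samples help to set, and MAE1, ILV3 and RPI1 were not. For LEU1, BAT1 and OAC1, which are among the 16, the values from yhp1Δ to yhp1Δ yox1Δ alone were -0.47, -0.28 and -0.21. The 10 with the smallest adjusted p among those higher included LYS2, which the 2 YHP1 backgrounds carry differently (lys2Δ0 in yhp1Δ), and also PRY1 (1.22 ± 0.08), DBF2 (0.70 ± 0.07), MSA2 (0.93), PRY2 (0.90), PIG1 (0.89), ELO1 (0.58) and MCM5 (0.71). All Mcm helicase genes were called, at log2 differences of 0.35 (MCM2), 0.49 (MCM3), 0.51 (MCM4), 0.71 (MCM5), 0.30 (MCM6) and 0.60 (MCM7). Among those lower were MET17 and YCL021W-A, which did not fall in yox1Δ itself: MET17, the met15Δ0 locus, was at 124 to 181 TPM in yhp1Δ and at or below 0.345 TPM in the others, and YCL021W-A was at 23.0 to 32.9 TPM in 3 strains and at or below 0.118 TPM in yhp1Δ yox1Δ. The subtelomeric YLR466C-B was lower as well (-1.49).

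The double deletion went beyond yox1Δ for some of these genes and not for others. PRY1 was at 636, 665 and 720 TPM in yhp1Δ yox1Δ, and its difference from yox1Δ was 1.37 on the log2 scale (adjusted p = 5.80e-05). DBF2, at 41.3, 35.9 and 41.9 TPM in yox1Δ, was at 59.7, 56.9 and 56.1 TPM in the double deletion (difference 0.53, adjusted p = 0.0602). Against wild type, yhp1Δ had 8 genes called in all (0.127%), 2 of them higher (0.0317%), and the double deletion 40 (0.634%), 28 of them higher (0.444%), with the same wild type samples as yox1Δ. For MCM4 and MCM7 the difference of the double deletion from yox1Δ was 0.00 ± 0.10 and -0.01 ± 0.12, with adjusted p of 0.993 and 0.980. The study also drew a list from yhp1-13A yox1-9A and yhp1Δ yox1Δ, each against the wild type of its set, so it shares wild type samples with yox1Δ and is no independent evidence of its direction. The copy used here, which may not be complete, held 15 genes, at a median of 0.43 in yox1Δ. All yox1Δ samples were above wild type in 7 of them (46.7%, beside 3.15% of all genes). PRY1, MCM7 and PIG1 were the 3 calls in yox1Δ (20%, beside 0.301% of all genes called higher). Of the others, CIT2 was at 0.78 ± 0.25, SPO24 at 0.54, NCA3 at 0.53, SPI1 at 0.39, LSO1 at 0.39, YRO2 at 0.33 and YGP1 at 0.10. KIN3 and NDL1 were at -0.15 and -0.11.

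In yox1-9A, 320 genes of the overexpression list were tested, and without the block none was called higher and 4 were called lower. Over all 6316 genes tested there were 7 lower calls (0.111%), these 4 among them. The 4 were SPI1 (-1.07), YGP1 (-1.37), YRO2 (-1.25) and HOR7 (-0.98), named after their values were seen. With the block, 35 of all genes were called lower (0.554%), and those on the list were not counted. PRY1 was at 43.3, 34.0 and 89.9 TPM there against 92.2, 69.9 and 198 TPM in its wild type (log2 fold change -1.07), and it was called lower with replicate number as a block (adjusted p = 0.0274) but not without it (0.999). PIG1 (-0.77) and MCM5 (-0.67) were likewise called lower with the block (adjusted p = 0.0789 and 0.0364). MCM7 was at -0.53 (adjusted p = 0.129 with the block) and MCM4 at -0.36. PRY2 (-0.04) and MSA2 (0.18), which rose in yox1Δ, had values near 0. Over the list of early cell cycle box genes the median was -0.26 in yox1-9A, where all genes had one of -0.08.

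The promoters of the target genes were read for the homeodomain core TAATTA, since Yox1 and Yhp1 are homeodomain proteins. The windows show it in capitals, in MSA2 and PRY1, which rose in yox1Δ, and in DBF2 and MCM2, which were called over both YHP1 backgrounds.
MSA2, chrXI:583376-583435, plus strand: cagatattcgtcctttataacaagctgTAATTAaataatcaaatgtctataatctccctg
PRY1, chrX:291215-291274, minus strand: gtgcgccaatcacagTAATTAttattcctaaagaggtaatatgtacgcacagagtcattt
DBF2, chrVII:667931-667990, plus strand: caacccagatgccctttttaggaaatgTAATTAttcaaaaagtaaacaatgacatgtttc
MCM2, chrII:177663-177722, minus strand: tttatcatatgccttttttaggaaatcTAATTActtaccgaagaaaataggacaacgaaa
The last 2 windows share a run of 12 bases just before the core. TAATTA stood in 2 of the 9 called genes of the overexpression list (22.2%), in 6 of the 15 genes of the list drawn from the double mutants (40%), and in 24.7% of all promoters. Of 1416 genes with it, 38 had all yox1Δ samples above wild type (2.68%), a share near that of all promoters. One exact string for Mcm1, CC, any base, AATT, any base and GG, was in none of the 9 and in 0.784% of all promoters. It was in 12 of 313 promoters of the overexpression list (3.83%). Other forms of the site were not counted, so a gene without the string may still hold one. By another motif scan, the study reported enrichment of Yox1, Fkh2 and Mcm1 motifs in the promoters of its targets. The MBF motif ACGCGT was in 3 of the 9, PIG1, ELO1 and MSA2, and in 5.58% of all promoters.

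The last group was that of tRNA genes. Of 299 tRNA genes in the table, 150 were tested. Of these, 4 were called higher (2.67%, beside 0.301% of all genes) and 1, tL(CAA)C, lower. tE(UUC)K, a glutamate tRNA gene, was at 9.59, 13.1 and 13.4 TPM in wild type and at 43.8, 46.9 and 28.5 TPM in yox1Δ (log2 fold change 1.63 ± 0.24, adjusted p = 0.00850, limma). tD(GUC)O, for aspartate, was at 53.7, 45.2 and 44.4 TPM and then at 149, 117 and 104 TPM, a log2 fold change of 1.34 ± 0.18. tG(GCC)D2, for glycine, was at 1.42 ± 0.20. tD(GUC)I1 rose from 2.56, 3.27 and 4.26 TPM to 17.3, 9.77 and 9.06 TPM, on 4 to 28 fragments per sample.

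The summed level of tRNA genes was higher in every yox1Δ sample than in wild type. It was 1080, 1102 and 1004 TPM in wild type and 1767, 1521 and 1283 TPM in yox1Δ, on 1687 to 2905 fragments. It was 812 to 1085 TPM in yhp1Δ and 1145 to 1360 TPM in yhp1Δ yox1Δ. Of the 150 tested, 24 had all yox1Δ samples above wild type (16%, beside 3.15% of all genes) and 3 below, with a median of 0.25. The families differed: the 9 tested tE(UUC) genes were all positive, at a median of 0.92, the 11 tG(GCC) genes had a median of 0.79 and the 10 tD(GUC) genes one of 0.55, whereas the 4 tR(ACG) genes had one of -0.47 and the 4 tY(GUA) genes one of -0.26. The median over tRNA genes was 0.07 on the side of the split with low HIS3 and 0.38 on the side with high HIS3, each side having 1 group with a single library. In yox1-9A the tRNA genes had a median of -0.10 and none was called, and the snoRNA genes, another class of RNA without a poly-A tail, had one of -0.03 in yox1Δ, with none of 77 called. The copies of a tRNA family are near-identical and only fragments with a mapping quality above a threshold were counted, so the share of each copy is uncertain.

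**Figure D5:**
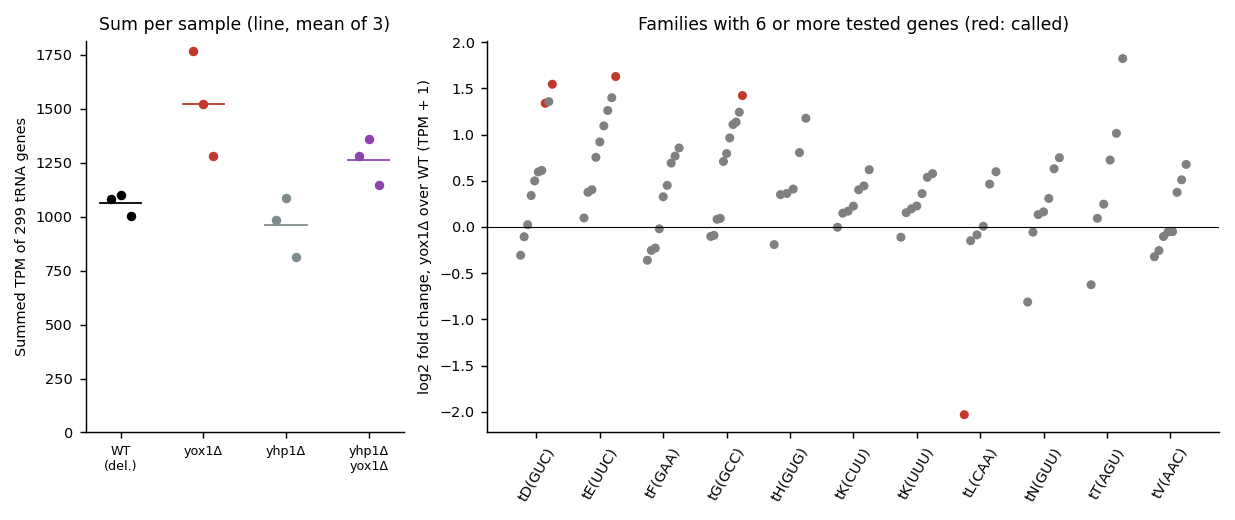
Left, summed TPM of the 299 tRNA genes (y axis, from 0) in each sample of the deletion set (points) with the mean of 3 (line); the yox1Δ samples lie at 1283 to 1767 TPM and the wild type samples at 1004 to 1102 TPM. Right, log2 fold change of yox1Δ over wild type on the TPM + 1 scale for tRNA families with 6 or more tested genes, 1 point a gene and red where called.

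YGR164W and YLR460C complete the calls. YGR164W (chrVII:828625-828960, plus strand) was at 18.5, 18.4 and 20.5 TPM in wild type and at 42.3, 37.1 and 31.5 TPM in yox1Δ, a 1.88-fold rise (adjusted p = 0.0612). A tRNA gene lies within it on the other strand, at chrVII:828723-828794, and whether the counting used strand is not given in the sources used here, so reads of the pair cannot be told apart. YLR460C, a gene near the right end of chromosome XII, fell to 0.357 times the wild type mean TPM, from 7.21, 5.46 and 7.01 TPM to 1.89, 2.70 and 2.43 TPM (log2 fold change -1.18 ± 0.16, adjusted p = 0.00544). The groups did not overlap. It was at 6.07 to 6.70 TPM in yhp1Δ yox1Δ, beside 5.37 to 7.48 TPM in yhp1Δ.

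How firmly each call stood differed. LEU2, YOX1, LEU1, BAT1, OAC1, PRY2, MSA2, MAE1, PRY1, YLR460C and the 4 tRNA genes called higher were called without each of the 6 libraries in turn. The 9 others were lost without at least 1 library, and each of the 6 libraries ended from 4 to 9 calls. The adjusted p rose to at most 0.169 for ILV3 and ELO1, 0.228 for YGR164W, 0.240 for RPI1 and tL(CAA)C, 0.260 for ZPS1, 0.276 for MCM4 and 0.352 for MCM7 and PIG1. Without wild type replicate 3 only 11 genes were called higher. Without it, or without yox1Δ replicate 2, PRY1, PRY2 and MSA2 were the only genes of the overexpression list called higher, so MCM4 and MCM7 were lost. With the 6 samples fitted alone 10 were, and PRY1 and MAE1 were lost as well. Genes just outside the threshold were tG(GCC)G2 (log2 fold change 1.24, adjusted p = 0.135), UTH1, HIS4, ARG3 and MCM5, and just inside it PIG1 (adjusted p = 0.0699), MCM7 and MCM4.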

How the data were processed

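RNA was measured by poly-A RNA-seq in 24 samples in 2 sets of 12. The labels name poly-A depletion and the methods poly-A purification. Per the labels and methods, the authors aligned paired reads to R64-1-1 with STAR 2.5.3a, counted exon fragments with featureCounts 1.5.2, and deposited TPM values for 7126 genes, with the gene length. The number of sample columns not used was 0.

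Values were taken as log2(TPM + 1), a scale that understates changes of genes of low TPM, and fitted with limma 3.58.1 in R 4.3.3: 4 groups of a set in 1 model, genes of mean TPM at least 1, eBayes with a trend, two-sided p adjusted by Benjamini-Hochberg over all genes tested. Contrasts were called at adjusted p below 0.1. TPM times length gave whole fragments for 100% of values (tolerance 0.02), 18.1 to 18.9 M per sample. Replicates of a group differed by at least 13.8 times the chi-squared that counting gives. Fragments were fitted with limma-voom as an alternative. Fits were tested on simulated data. RefSeq R64 gave names, positions and sequence; 6048 of 7126 identifiers matched. Intervals cover counting error only.

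The genes named are all calls, YOX1, YHP1, their neighbours, strain markers, the 10 smallest adjusted p in each direction over both YHP1 backgrounds, up to 4 members of each list, and the list drawn from the double mutants; other genes were chosen after their values were seen. The members and lists were chosen with earlier results of these data known. Alternatives were the pseudocount (0.1), the filter (none, or mean TPM at least 10), median-of-ratios scaling, the replicate block, the samples fitted, eBayes settings, a threshold of 0.05, and leaving out each library. Some results are not reported here.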

Additional observations from a re-analysis of the deposited data

Results flagged for a closer look

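The interaction term of limma was called at an adjusted p below 0.1 for 11 of the genes named by the rule. It is the change from yhp1Δ to yhp1Δ yox1Δ minus the change from wild type to yox1Δ, on the log2 scale. Only the latter change also removes the LEU2 marker and both tags, so a dependence on YHP1 cannot be told apart from their loss. Genes of leucine synthesis and pyruvate supply were LEU1 (-1.83 ± 0.16, SE), BAT1 (-1.31 ± 0.13), OAC1 (-1.28 ± 0.18), MAE1 (-1.09 ± 0.13) and ILV3 (-0.80 ± 0.13). LEU1 changed by 1.36 from wild type to yox1Δ and by -0.47 from yhp1Δ to the double deletion. The strain markers were LEU2 (6.92), MET17 (-7.0) and LYS2 (4.38), each of which follows the listed genotypes. The lysine gene LYS9 was at 0.76 (adjusted p = 0.0257), with changes of -0.18 and 0.58. YOX1 was at 1.70. Its level was 96.0 ± 11.2 TPM (SD, n = 3) in wild type, 42.2 ± 5.7 TPM in yhp1Δ, where it carries no tag, 0.831 ± 0.234 TPM in yox1Δ. The double deletion was at 1.64 ± 0.22 TPM. YCL021W-A was at -5.04.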

How the results depend on the processing

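Of the counts of called genes, those that moved by over 1.5 times were the following. In yox1Δ against wild type, 19 genes were called higher and 4 lower; a mean TPM of at least 10 left 2 lower, since tL(CAA)C and YLR460C are below it, and the 6 samples fitted alone gave 10 higher. With log2 HIS3 level as a covariate, chosen after seeing the data, 46 were called higher and 9 lower, and over both YHP1 backgrounds 72 higher and 13 lower, in place of 45 and 8; the 23 calls were all kept. Leaving out 1 library gave 11 to 18 higher and 3 to 4 lower, and over both backgrounds 31 to 48 higher and 6 to 10 lower. Limma-voom on recovered fragments called 20 higher and 4 lower, of which 15 and 4 were calls of the TPM fit, and lost ZPS1, YGR164W, RPI1 and tD(GUC)I1. The median over the leucine list stayed between 0.28 and 0.43, and over tRNA genes between 0.20 and 0.37, without each library. tRNA values and tL(CAA)C rest on few fragments, 0 to 241 per sample in the 5 called genes, which limits their precision.

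The residuals of same-numbered wild type and yox1Δ samples correlated at 0.24, 0.34 and -0.17, and not every sample correlated best with its own number. In yhp1Δ, replicate 2 (15.8) stood apart from replicates 1 and 3 (-8.05 and -7.78) on the main axis within groups, as in wild type. In yox1Δ, replicate 3 did not follow that pattern. Whether same-numbered samples were handled together was not tested. With a replicate block, 37 genes were called higher and 6 lower in yox1Δ, and 64 higher and 15 lower over both backgrounds.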
